A study of Mus musculus with 19 samples.

Results

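Acetylation of histone H3 at lysine 27 (H3K27ac) was examined at 8 genes of the Bcl2 family in sorted mouse microglia, the resident macrophages of the brain. The genes were Bcl2, Bcl2l1, Bcl2a1b, Bcl2a1d, Mcl1, Bcl2l11, Bax and Bbc3, taken by gene symbol from the deposited peak lists and RNA tables. All 8 had a row in the RNA tables, which named 24997 genes in all, and 5 of the 8 were the gene nearest to at least 1 listed peak. They accounted for 22 of 14035 listed peaks, which merged into 13 separate regions.

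Of the 19 samples of the study, 9 were input DNA and 10 were chromatin precipitated for H3K27ac, and 8 of the latter gave the values below, 2 from each of 4 groups of C57BL/6 mice. WT basal microglia came from PRMT1Ifl/fl mice on normal diet, with a labelled time of 11 weeks. WT CD11c-low and WT CD11c-high microglia came from PRMT1Ifl/fl mice that received 0.2% cuprizone (CPZ) for 5 weeks, sorted by CD11c, the integrin that marks a microglial subset in demyelinated brain. KO CD11c-low microglia came from PRMT1fl/fl; cx3r1cre-ert2 mice on the same CPZ diet, in which tamoxifen-induced Cre from the Cx3cr1 locus deletes the arginine methyltransferase PRMT1 in microglia and in other cells that use that locus. The labels of all groups, WT basal included, carry an age of 4 to 6 weeks at the start of the CPZ diet. The study's methods place tamoxifen near that age and the diet later, so the age at the start of the diet is uncertain. Per the study's methods the floxed controls received tamoxifen too. The labels name the cx3r1cre-ert2 allele for KO mice alone, so that the loss of Prmt1 and the presence of Cre cannot be told apart. Cells were gated on CD45 and CD11b, and the number of mice behind a library was not given in the sources used here. KO basal H3K27ac was not analysed here.

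The Bcl2 family sets the threshold at which the mitochondrial outer membrane is permeabilised and caspases are activated. Anti-apoptotic members (Bcl2, the Bcl2l1 product BCL-XL, MCL1 and the mouse A1 proteins from the Bcl2a1 genes) hold the pore-forming effectors BAX and BAK in check, while BH3-only members (the Bcl2l11 product BIM and the Bbc3 product PUMA) neutralise the anti-apoptotic members or activate the effectors. In macrophages survival depends on signals through the CSF1 receptor, and the A1 genes are known as inducible survival genes of the myeloid lineage.

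A listed peak is one that the authors called different between the groups at a false discovery rate under 0.05 and an absolute log2 fold change over 1. The listing thus selects the direction and the size of every difference described here, no test of a listed peak within its own comparison was made, and a gene without a listed peak may still carry H3K27ac. Values are normalised tag counts, scaled by the authors to the mean size of the 4 libraries of a comparison. With 2 libraries a group, the exact two-sided permutation test cannot go below p = 0.333 for a single peak. Depth relative to the mean library was 56.2% and 85.1% in the WT basal libraries and 100.1% to 118% in the 6 CPZ libraries, so that the fewest reads stand behind the basal values. In the pooled RNA, 8 of 8 microglia markers had a mean of at least 10 in each of the 6 tables (summed share 3308 to 4274 ppm of the summed means). The 4 oligodendrocyte markers summed to 192 to 309 ppm, the 7 monocyte and border macrophage markers to 87.4 to 194, and the 5 lymphocyte markers to 0.334 to 0.943, with Cd3e at 0 in 4 tables. Against WT basal, 1 of 4 oligodendrocyte markers had a higher and 1 a lower listed peak in each gate, and 1 of 5 lymphocyte markers had a higher one. Of 7 monocyte and border macrophage markers 2 had a higher and 0 a lower peak in CD11c-low cells, and 2 and 2 in CD11c-high cells. Of 3 endothelial markers 1 had a higher and 2 a lower peak in CD11c-low cells, and 2 and 2 in CD11c-high cells, and some genes had both. Of the 8 microglia markers 1 had a higher and 1 a lower peak in CD11c-high cells and none in CD11c-low cells. The part of such cells in the results was not tested. In bulk samples such as these, fewer cells of a type and less signal per cell cannot be told apart. Prmt1, the targeted gene, had no listed peak in any comparison, and its level in single KO libraries was not analysed here.

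CPZ microglia carried more H3K27ac than WT basal microglia at genes on both sides of the family, and no member had a listed peak that was lower in any of the 5 comparisons. These directions hold on the authors' scale of total tags. TMM factors computed over the listed peaks, most of which are higher in CPZ cells, shift the groups by 1.53 and 1.49 on the log2 scale. They turn 7 of the 22 member differences, at Bcl2l1, Bcl2l11, Bcl2a1b and Bcl2. The intronic Bcl2 peaks against WT basal kept log2 differences of 1.23 to 4.30. The broad Bcl2a1d peak kept its sign but fell from 1.62 to 0.09 in CD11c-low and from 1.73 to 0.24 in CD11c-high cells. In WT CD11c-low cells 4 of the 8 members had at least 1 higher peak (Bcl2, Bcl2l1, Bcl2a1d and Bcl2l11, 9 peaks together), and in WT CD11c-high cells 5 members had one (the same 4 and Bcl2a1b, 11 peaks). Among the 11301 genes with a pooled RNA mean of at least 10, 16.8% had a higher peak and 2.49% a lower peak in CD11c-low cells, and 19.8% and 7.39% in CD11c-high cells. Between the CPZ groups the lists were short. Bcl2 was the 1 member with a peak higher in WT CD11c-high than in WT CD11c-low cells (background 1.14% higher and 1.19% lower) and the 1 member with a peak higher in KO than in WT CD11c-low cells (background 1.18% higher and 0.248% lower). No member had a listed peak between KO CD11c-low and WT CD11c-high cells (background 2.65% higher and 1.83% lower). Mcl1, Bax and Bbc3 had no listed peak in any comparison. These 3 genes span 6.24, 5.21 and 9.94 kb. Of the members with a listed peak, Bcl2 spans 176 kb, Bcl2l1 75.1 kb and Bcl2l11 36.5 kb, but Bcl2a1b and Bcl2a1d only 8.57 and 8.56 kb. The part that gene length plays in the counts was not tested. Of the 22 listings, 14 lay in introns, 5 between genes and 3 at promoters.

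**Figure D1:**
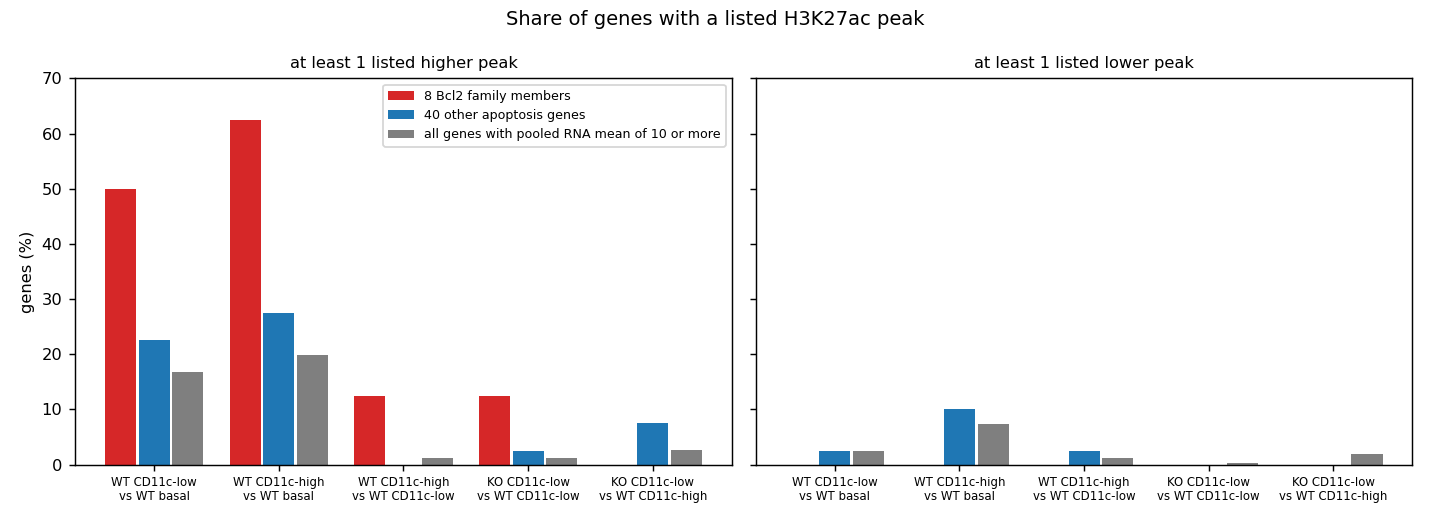
Percentage of genes with at least 1 listed higher (left) or lower (right) H3K27ac peak in each of the 5 comparisons, for the 8 Bcl2 family members, 40 other apoptosis genes and all 11301 genes with a pooled RNA mean of at least 10. In WT CD11c-high against WT basal cells the shares of genes with a higher peak were 62.5%, 27.5% and 19.8%, and the members have no bar in the right panel. The limit on the RNA mean was not applied to the 40 genes.

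Bcl2, the founding anti-apoptotic member (chr1:106538176-106714290, minus strand, GRCm38), gained H3K27ac at 2 places in its large intron, where basal cells had almost no reads. At the place nearer to the start, chr1:106694955-106695878 (18.9 kb away), the WT basal libraries had 1.64 and 0 normalised tags and the WT CD11c-low libraries 63.6 and 58.6. In reads this was 1 and 0 against 81 and 70, a depth-corrected ratio of 93.6 with an exact 95% counting interval of 16.6 to 3720. In the CD11c-high comparison the peak chr1:106695162-106695920 at the same place had 1.60 and 2.11 tags in basal and 87.1 and 78.4 in CD11c-high cells, or 3 reads against 200 (ratio 43.3, interval 14.6 to 212). Intervals cover counting error only, since the reads of the 2 libraries of a group were pooled. They leave out the variation between replicates and the choice of these peaks for their difference. The log2 differences on the log2(value + 1) scale were 5.25 ± 0.70 and 4.88 ± 0.15 (SE, n = 2 per group), the largest of the 22 listings. The 2 basal libraries were close to 0 in both comparisons, and the peaks are listed for these differences.

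Farther into the intron, at chr1:106684426-106685228 (29.5 kb from the start), WT basal cells had 7.99 and 2.11 tags and CD11c-high cells 63.1 and 88.4 (log2 difference 3.84 ± 0.80). A narrower peak there, chr1:106684463-106684963, had 4.93 and 2.17 tags in basal and 29.0 and 20.9 in CD11c-low cells (2.57 ± 0.51). The wider peak, chr1:106684426-106685228, had the same bounds in the comparison of the 2 gates, so that all 6 WT libraries could be put on the scale of a library of mean depth. On that scale the basal values were 8.90 and 2.35, those of CD11c-low cells 42.5 and 39.9, and those of CD11c-high cells 70.3 and 98.5. The 3 groups were thus ordered without overlap, basal lowest and CD11c-high highest, and this is a description, since the peak is listed for these differences. The Bcl2 promoter itself, chr1:106713499-106715135, already had 68.7 and 74.9 tags in basal cells and had 157 and 173 in CD11c-high cells (log2 difference 1.19 ± 0.09), and it was not listed for CD11c-low cells.

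**Figure D2:**
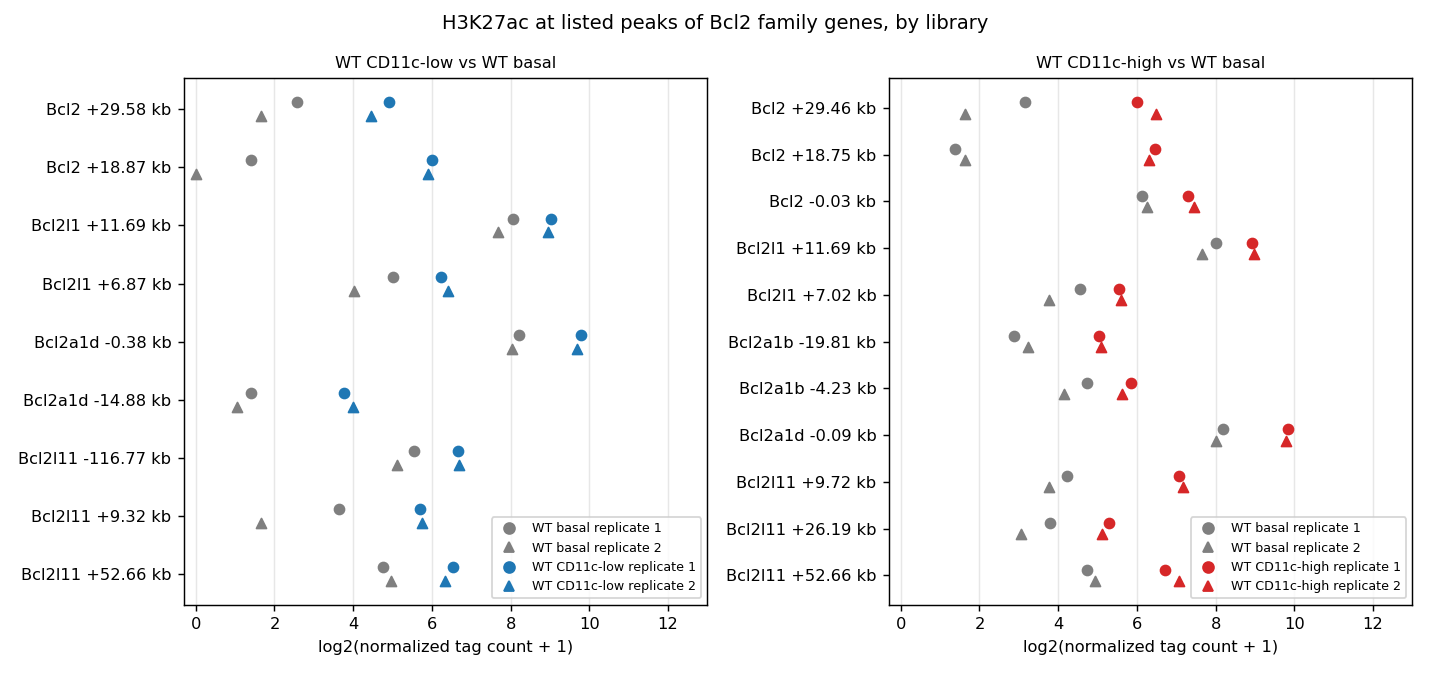
H3K27ac at each listed peak of a Bcl2 family gene (rows, with the distance of the peak centre from the gene's start in kb), as log2(normalised tag count + 1), for WT CD11c-low (left) and WT CD11c-high (right) against WT basal. Each point is 1 library, circles for replicate 1 and triangles for replicate 2. The intronic Bcl2 region nearer to the start has the lowest basal values of the right panel (1.60 and 2.11 tags). Every peak shown was listed for a difference between these same groups, so the separation of the points in a row is selected.

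KO and WT cells of the same gate differed at Bcl2 as well. Over a wider peak around the nearer intronic place, chr1:106694277-106697534, WT CD11c-low cells had 138 and 131 tags and KO CD11c-low cells 307 and 286. Group means were 134 ± 4.76 and 297 ± 15.4 (SD, n = 2), a ratio of 2.21, and the peak is listed for this difference. With TMM factors over that list, which shift the groups by 1.30, the log2 difference was -0.16 in place of 1.14. That list holds 222 higher and 49 lower peaks, and the factors hold its bulk at no change. The change of sign is therefore no test of this peak. A second peak inside the Bcl2 gene, chr1:106626605-106628485, moved with it. Its values were 89.0 and 92.0 in WT and 232 and 186 in KO cells, and the deposited list assigns it to Mir3473f, the gene with the nearest start, so it is not among the 22. Between the 2 WT gates, the intronic peak chr1:106684426-106685228 had 47.4 and 44.5 tags in CD11c-low and 78.3 and 110 in CD11c-high cells (log2 difference 1.00 ± 0.24). The peak listed between the WT gates and the peak listed between KO and WT CD11c-low cells do not overlap within the intron. This does not show that the groups gained at different places. The peak listed for KO cells spans chr1:106695162-106695920, where CD11c-high cells also rose over basal cells (1.60 and 2.11 to 87.1 and 78.4 tags). KO values at chr1:106684426-106685228 were not listed.

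**Figure D3:**
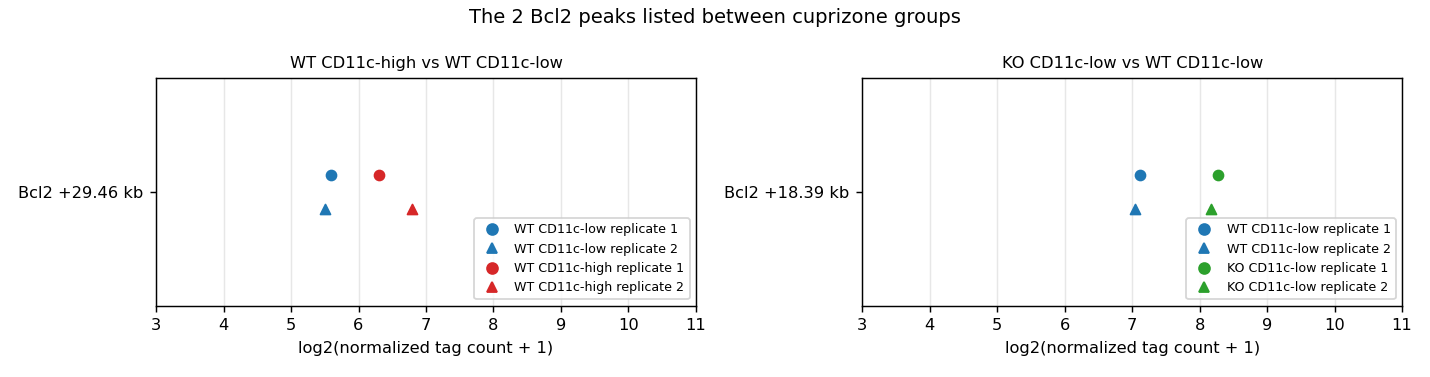
The 2 Bcl2 peaks listed between CPZ groups, as log2(normalised tag count + 1), with 1 point per library (circles replicate 1, triangles replicate 2). Left, WT CD11c-high (78.3 and 110 tags) against WT CD11c-low (47.4 and 44.5). Right, KO CD11c-low (307 and 286) against WT CD11c-low (138 and 131).

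Bcl2l1, which encodes BCL-XL (chr2:152758732-152833803, minus strand), was already acetylated in basal cells and its larger peak was a little over 2 times as high in both gates. This intronic peak, chr2:152814939-152818658, 11.7 kb from the start, had 266 and 205 tags in WT basal and 519 and 496 in WT CD11c-low cells. In the CD11c-high comparison the same peak (its end 3 bases further) had 259 and 199 tags in basal and 489 and 501 in CD11c-high cells. The ratios of means were 2.15 and 2.16. With TMM factors over the listed peaks both differences changed sign (-0.42 and -0.36 on the log2 scale). A smaller peak 6.87 to 7.02 kb from the start rose from 31.2 and 15.2 to 74.5 and 83.7 tags in CD11c-low cells and from 22.4 and 12.7 to 45.3 and 47.7 in CD11c-high cells. The middle of the larger peak is shown with its C/EBP-type match in capitals.
Bcl2l1, chr2:152816648-152816947: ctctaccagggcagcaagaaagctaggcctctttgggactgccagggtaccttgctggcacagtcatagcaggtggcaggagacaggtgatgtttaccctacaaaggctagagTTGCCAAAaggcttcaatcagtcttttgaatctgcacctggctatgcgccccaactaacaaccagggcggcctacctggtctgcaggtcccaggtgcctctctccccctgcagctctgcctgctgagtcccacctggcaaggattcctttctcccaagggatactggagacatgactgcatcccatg

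Bcl2a1b and Bcl2a1d are mouse copies of the A1 gene, which encodes an inducible anti-apoptotic protein. The most tags in 1 peak of any member were at the start of Bcl2a1d (chr9:88723288-88731850, minus strand), where a broad peak of 9424 bases (10026 in the CD11c-high comparison) covered the promoter. Per kb of peak the larger Bcl2l1 peak was higher, with 151.1 and 144.4 reads at mean depth in CD11c-low cells against 102 and 95.3 for Bcl2a1d. The Bcl2a1d peak had 296 and 260 tags in WT basal and 887 and 829 in WT CD11c-low cells, a ratio of 3.09. In the CD11c-high comparison it had 289 and 255.2 tags in basal and 921 and 885 in CD11c-high cells, a ratio of 3.32. With TMM factors over the listed peaks its log2 differences fell from 1.62 and 1.73 to 0.09 and 0.24. A weak peak 14.9 kb upstream had 2 reads in basal and 34 in CD11c-low cells (ratio 10.5, interval 2.70 to 90.6). Bcl2a1b (chr9:89199273-89207838, plus strand) had 2 upstream peaks, both listed for CD11c-high cells alone. The nearer, chr9:89194642-89195440, rose from 25.6 and 16.9 to 56.9 and 48.4 tags, and the farther, 19.8 kb upstream, from 6.39 and 8.44 to 31.99 and 33.06. Just downstream of Bcl2a1b, a peak assigned in the list to Mthfs was higher in both gates. As chr9:89208797-89212842 it rose from 223 and 159 to 419 and 369 tags in CD11c-low cells. As chr9:89208234-89212976 it rose from 217 and 156 to 457 and 449 in CD11c-high cells. Farther downstream a broad peak with more tags, chr9:89217498-89229658, also assigned to Mthfs, rose from 465 and 371 to 1728 and 1617 tags in CD11c-high cells. Its log2 difference was 2.01 ± 0.17, against 2.00 ± 0.18 at the farther Bcl2a1b peak.

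The A1 copies share long stretches of sequence, and values assigned to one copy may hold reads of another. Of the 76-base words (the read length) in the Bcl2a1d and Bcl2a1b peaks, 29.8% to 50.2% occurred once in the reference genome, against 100% in every Bcl2, Bcl2l1 and Bcl2l11 peak. How the authors placed reads with several matches is not given in the sources used here. The likeness is visible just upstream of the starts, in the RefSeq promoters (GRCm38) of these 2 genes and of the third copy Bcl2a1a. Each holds a match to the loose AP-1-type letters TGANTCA, followed by the PU.1-type match (both in capitals, gene strand). N is any base, and here it is A, not C or G. The PU.1-type match begins 104 bases before the start in Bcl2a1a and Bcl2a1d and 148 bases before it in Bcl2a1b, and the gap between the matches is 9 bases in Bcl2a1a and Bcl2a1b and 3 in Bcl2a1d. These stretches were chosen after the peak values were seen.
Bcl2a1a, chr9:88956775-88956858: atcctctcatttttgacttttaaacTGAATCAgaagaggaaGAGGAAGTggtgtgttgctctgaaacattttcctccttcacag
Bcl2a1b, chr9:89199084-89199167: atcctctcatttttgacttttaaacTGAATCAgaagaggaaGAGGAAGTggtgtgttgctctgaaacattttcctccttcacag
Bcl2a1d, chr9:88731912-88731989: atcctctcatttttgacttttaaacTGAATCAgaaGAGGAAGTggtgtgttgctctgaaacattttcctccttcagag
GAGGAAGT occurs on either strand in 3.2% and TGANTCA in 7.81% of the 32851 promoter windows of the same table (250 bases before to 50 after each start). The middle of the broad Bcl2a1d peak, less its 60 exon bases, reads the same stretch on the reference strand, with the AP-1-type and PU.1-type matches again in capitals, and is followed by the middle of the nearer Bcl2a1b peak, which held no match.
Bcl2a1d, chr9:88731851-88732090: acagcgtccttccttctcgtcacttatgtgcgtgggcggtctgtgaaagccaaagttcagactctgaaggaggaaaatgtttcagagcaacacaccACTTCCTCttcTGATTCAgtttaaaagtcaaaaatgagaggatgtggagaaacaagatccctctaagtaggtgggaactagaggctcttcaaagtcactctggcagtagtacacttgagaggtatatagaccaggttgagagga
Bcl2a1b, chr9:89194891-89195190: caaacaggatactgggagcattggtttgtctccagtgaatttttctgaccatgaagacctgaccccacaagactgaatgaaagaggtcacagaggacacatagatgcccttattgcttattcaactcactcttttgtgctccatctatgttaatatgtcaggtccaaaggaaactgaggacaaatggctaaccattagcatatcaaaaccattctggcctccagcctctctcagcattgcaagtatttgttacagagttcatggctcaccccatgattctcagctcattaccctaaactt

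Bcl2l11 encodes BIM, the BH3-only protein that opposes the genes above (chr2:128126038-128162547, plus strand), and it gained H3K27ac at 4 regions. In its intron, 9.32 kb from the start, chr2:128136582-128137212 rose from 11.5 and 2.17 to 51.0 and 52.8 tags in WT CD11c-low cells. The wider peak chr2:128136562-128138020 at this place rose from 17.6 and 12.7 to 133 and 144 tags in CD11c-high cells, a ratio of 9.17 and the largest relative gain outside Bcl2 and the weak Bcl2a1d peak in either gate. An intronic peak 26.2 kb from the start was listed for CD11c-high cells alone (12.8 and 7.38 to 38.2 and 33.8 tags). A peak 117 kb upstream, inside an intron of Acoxl, was listed for CD11c-low cells alone (46.0 and 33.6 to 100.4 and 101 tags). The middle of the chr2:128136562-128138020 peak is shown with its C/EBP-type match in capitals.
Bcl2l11, chr2:128137141-128137440: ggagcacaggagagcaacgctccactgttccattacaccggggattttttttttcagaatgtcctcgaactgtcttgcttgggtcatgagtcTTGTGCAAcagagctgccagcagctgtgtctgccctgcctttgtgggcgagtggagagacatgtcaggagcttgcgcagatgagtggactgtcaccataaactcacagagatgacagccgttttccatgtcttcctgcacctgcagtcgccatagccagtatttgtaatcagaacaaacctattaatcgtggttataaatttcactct

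The fourth Bcl2l11 region, chr2:128179720-128180746, lies 52.7 kb downstream of the start and had the same bounds in both comparisons with WT basal, so that the gates could be compared directly. At mean depth it had 28.5 and 32.9 reads in basal, 100.3 and 86.2 in CD11c-low, and 117 and 149 in CD11c-high cells. The CD11c-high values lay above the CD11c-low values in 2 of 2 libraries. The log2 difference was 0.50 ± 0.17 (SE, n = 2 per group), and limma with Benjamini-Hochberg adjustment over all 1108 such peaks gave an adjusted p of 0.101, which did not pass 0.05. The adjusted p was 0.0165 with edgeR and 0.0314 over the 728 peaks with a mean of at least 50, and ran from 0.0165 to 0.367 over all settings. Of the 1108 peaks 2.08% were called higher and 12.7% lower in CD11c-high cells, and leaving out either CD11c-low library left no call while leaving out either CD11c-high library left 3. Over the 2694 peaks that overlapped by at least 80% between the lists, 388 were called higher and 174 lower, so the balance of calls turned. In that set, as reads per kb, the larger Bcl2l1 peak differed between the gates by 0.003 ± 0.079 on the log2 scale and the broad Bcl2a1d peak by 0.025 ± 0.11 (limma, adjusted p = 0.983 and 0.889). The 3 peaks most like the shared Bcl2l11 peak over the 6 WT libraries, by Euclidean distance of centred log2 values, were nearest to Cenpl (distance 0.273), Dyrk1a (0.287) and Vps54 (0.293). The median distance over all 1108 peaks, which include peaks listed as lower than basal, was 1.15. The 3 were picked as the smallest distances, so the median does not measure how unusual the likeness is.

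**Figure D4:**
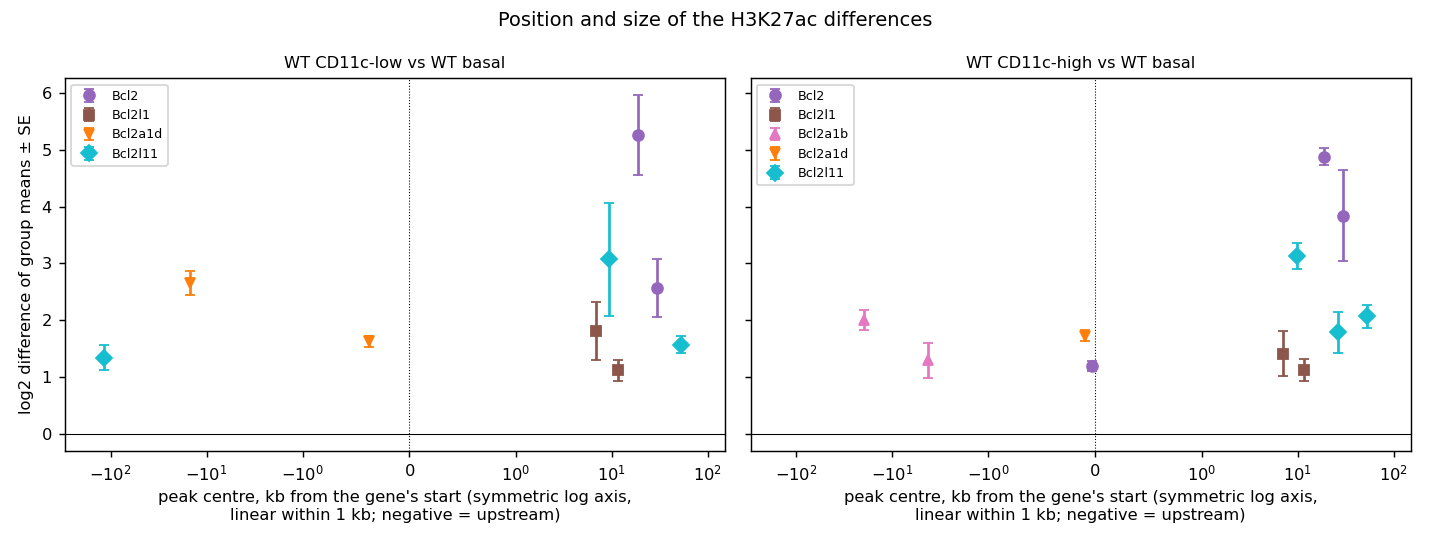
Log2 difference of group means (± SE, n = 2 libraries per group) at each listed peak of a member against the distance of the peak centre from the gene's start in kb (symmetric log axis), for WT CD11c-low (left) and WT CD11c-high (right) against WT basal. The largest differences, 5.25 and 4.88, were at the intronic Bcl2 region near 19 kb, and the 3 points near the starts, of Bcl2 and Bcl2a1d, lie between 1.19 and 1.73.

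Across the 20 separate member windows (central 300 bases of each listed peak with distinct bounds), matches to 7 short motifs were few. On both strands GAGGAAGT (PU.1) was in 2 of 20 windows and in 5.54% of all 12333 listed windows, TGANTCA (AP-1) in 2 and 11.1%, GGANTTTCC (NF-kB) in 2 and 1.56%, GAAANNGAA (IRF) in 2 and 11%, GGAANNGAA (PU.1-IRF composite) in 1 and 12.2%, TTGCNNAA (C/EBP) in 4 and 13.9%, and TCACGTGA (MiT/TFE) in 0 and 0.284%. The composite letters can overlap with the PU.1 and IRF letters. N stands for any base, so TGANTCA takes in A and T as well as C and G at its middle. The NF-kB-type matches were at the nearer intronic Bcl2 region and at the shared Bcl2l11 region, and the windows of 1 region overlap, so that the 20 windows are not independent.

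RNA levels were taken as the authors' means over pooled libraries. The per-library RNA columns were not used, so the levels below have no replicates and no test. Table by table, means were taken over 5 basal libraries (WT and KO together), 4 libraries of basal and 1 WT CPZ gate (2 tables), or 2 CPZ libraries of 2 groups (3 tables). Per kb of transcript, Mcl1 was the highest member in the basal table at 517, above Bcl2l1 at 243, Bcl2a1b at 205, Bbc3 at 160, Bax at 133 and Bcl2l11 at 102, with Bcl2 at 16.1 and Bcl2a1d at 14.5 the lowest. Mcl1, a short-lived anti-apoptotic protein that many myeloid cells rely on, stood at the 99.5th percentile of the 13954 genes with a mean of at least 1 in that table, and Bcl2 at the 33.2nd (55.2nd without division by length, 16.5th among genes with a mean of at least 10). In the table of the 2 WT CPZ gates the per kb means were 544 for Mcl1, 286 for Bcl2a1b, 261 for Bcl2l1, 165 for Bbc3, 137 for Bax, 89.6 for Bcl2l11, 83.0 for Bcl2a1d and 27.03 for Bcl2. Bcl2a1d stood at the 31.8th percentile in the basal and at the 78.6th in the WT CPZ table. These were the 22.6th and 47.7th without division by length, and the 14.8th and 72.9th among genes with a mean of at least 10.

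The tables were normalised separately, so levels were set across them only as a share of the summed means, in ppm. Bcl2a1d was at 3.83 in the basal table and at 26.1 in the WT CPZ table, 6.80 times as much, and at 21.9 and 21.2 in the other CPZ tables, which hold KO CD11c-low cells. Bcl2 was at 38.5 in basal and at 77.1, 76.3 and 90.4 in the CPZ tables, 2.00, 1.98 and 2.35 times as much. Bcl2a1b was at 52.0 in basal and at 86.2, 70.9 and 84.7. The CPZ tables share libraries with each other and are not independent. At a fold of 1.5 in the WT CPZ table, 3 of 8 members were higher (Bcl2, Bcl2a1b and Bcl2a1d) and none lower, where 15.1% of 10575 genes were higher and 13.9% lower. The other members stayed nearer to the median gene, whose fold was 0.975. Bcl2l1 was 1.28, Mcl1 1.25, Bax 1.23, Bbc3 1.22 and Bcl2l11 1.04 times the basal share. Bcl2l11 had 3 regions with higher H3K27ac in each gate and an RNA share of 171 in the basal and 178 in the WT CPZ table, whereas Mcl1 had no listed peak and shares of 599 and 751. The split of RNA between the A1 copies is uncertain too, since how their reads were assigned is not given in the sources used here.

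**Figure D5:**
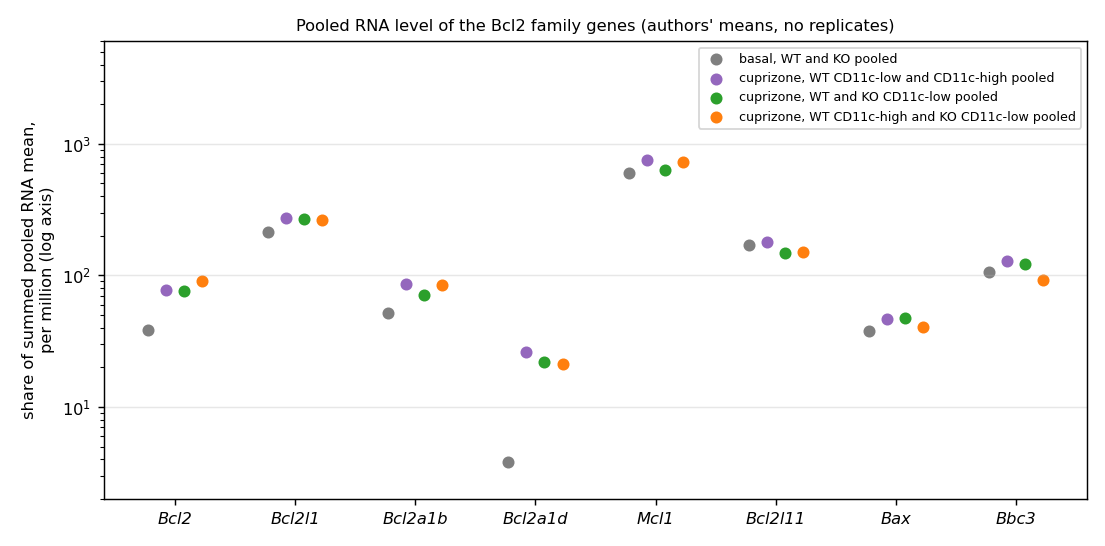
Share of the summed pooled RNA mean, in ppm (log axis), for each of the 8 members in 4 tables of the authors' pooled means: basal WT and KO, and 3 pairs of CPZ groups. Only pooled means are shown, without replicates, since the per-library RNA columns were not used. Bcl2a1d is the lowest member in basal cells (3.83) and lies between 21.2 and 26.1 in the CPZ tables, and Mcl1 is the highest in all 4.

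Of 40 other apoptosis genes in 8 lists, 30 had a pooled RNA mean of at least 10. The peak counts below are over all 40, also those under that mean, whereas the background leaves such genes out. In WT CD11c-low against basal cells 9 of the 40 had a higher and 1 a lower peak (22.5% and 2.5%). Among all genes with that RNA mean the shares were 16.8% and 2.49%. In WT CD11c-high cells the counts were 11 and 4 (27.5% and 10%, against 19.8% and 7.39% of all such genes). Between the gates they were 0 and 1 (0% and 2.5%, against 1.14% and 1.19%). KO CD11c-low cells had 1 gene with a higher and 0 with a lower peak relative to the WT gate of the same name (2.5% and 0%, against 1.18% and 0.248%). Relative to the WT CD11c-high gate the counts were 3 and 0 (7.5% and 0%, against 2.65% and 1.83%). Among the 4 other anti-apoptotic genes, Bcl2a1a and Bcl2l2 were higher in both gates. The promoter peak of Bcl2a1a, the third A1 copy, rose from 324 and 319 to 836 and 735 tags in CD11c-low cells, and that of Bcl2l2, which encodes BCL-W, from 44.7 and 33.7 to 109 and 108 in CD11c-high cells. Of 6 other BH3-only genes, Pmaip1 and Bmf were higher in both gates, Bik was higher and Bid lower in CD11c-high cells. Pmaip1, which encodes NOXA, the antagonist of MCL1, had a peak with 261 and 188 tags in basal and 767 and 775 in CD11c-low cells, and Bmf one with 64.1 and 52.0 against 141 and 121.

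Apaf1, the scaffold of the apoptosome, had a listed peak that was higher in KO CD11c-low cells than in each WT gate. Of 9 death receptor and necroptosis genes, Ripk1 was higher in both gates and Tnfrsf10b lower in CD11c-high cells. Of 5 upstream regulators, Mdm2, the ubiquitin ligase of p53, had a peak at -8251 bases from its start with 88.7 and 85.7 tags in basal and 542 and 483 in CD11c-low cells. Foxo1, a transcription factor known to induce Bcl2l11 in other cells, had peaks in both directions in CD11c-high cells, with a peak upstream at 187 and 155 against 416 and 440 tags and an intronic peak at 348 and 265 against 122 and 154. Of the 4 less classified family genes Bcl2l14 was higher in both gates, with a peak at -133847 bases from its start and values of 133 and 85.7 against 446 and 431 tags in CD11c-low cells. None of the 4 inhibitors of apoptosis and neither other effector gene (Bak1 and Bok) had a listed peak. In pooled RNA, 6 of the 28 genes with a mean of at least 10 in both tables were at least 1.5 times higher in the WT CPZ than in the basal table (Bcl2l2, Bcl2a1a, Bak1, Pmaip1, Apaf1 and Cdkn1a) and 2 lower (Bid and Foxo1). Among all 10575 such genes 15.1% were higher and 13.9% lower. The median fold of the 28 was 0.94.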

How the data were processed

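H3K27ac ChIP-seq was made from sorted microglia, about the same cell number per assay, with 2 biological replicates per condition. Per the paper and the labels, the authors trimmed single-end reads of 76 bases, mapped them with Bowtie2, checked them with FastQC 0.11.9, removed duplicates with SAMtools 0.1.19 and called peaks against input with HOMER. The deposited signal is a normalised tag count per peak and library, which the authors scaled to the mean library size of each comparison. The lists also hold the authors' fold changes and p-values, which were not used. The sources name both hg19 and mm10. The coordinates are mouse: 99.5% of 11909 listed peaks lay within 100 bases of the stated distance from the named transcript in GRCm38.

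Dividing each library's values by its smallest step returned whole reads for 100% of them (tolerance 0.1 read), and the steps gave the depths relative to the mean library. Library totals were not analysed here. In the CD11c-low against WT basal list the median peak had 29 and 36 reads in the basal and 150 and 137 in the CD11c-low libraries. The deposited RNA signal used here is the authors' mean over the libraries of a table (unit signal, gene counts scaled by the authors). The 19 per-library RNA columns were not used, nor were the authors' RNA comparison columns.

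Log2 differences used a pseudocount of 1, with SE from the 2 libraries of each group. Peaks were assigned to genes as deposited. CD11c-high and CD11c-low were compared at peaks with the same bounds in both WT basal comparisons (limma 3.58.1 on log2(value + 1), mean-variance trend, no block, Benjamini-Hochberg over 1108 peaks), with edgeR 4.0.16 and DESeq2 1.42.0 on the recovered reads as alternatives. On simulated reads for this comparison limma recovered 94 of 100 peaks changed by 1 and 98 of 100 changed by 2 on the log2 scale, with 8 calls among 908 unchanged peaks. The simulated libraries had the same fixed dispersion at every peak. Smaller changes, such as the 0.50 at the shared Bcl2l11 peak, were not simulated. The other alternatives were a pseudocount of 5, the ratio of means, TMM factors, stricter peak limits, other gene assignments and leaving out each replicate.

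The members, gene lists and motifs were chosen with earlier results of these data known, and the members' tests are not independent of them. The naming rule took all 8 members with every listed peak, and per list of other genes up to 2 with the highest mean listed peak. Other genes in the text are named because a count rests on them, after their values were seen. The windows shown are the central 300 bases of the peak with the highest mean of a member. A few items that this rule takes in are not reported here. R 4.3.3 and Python 3.11.15 (scipy 1.17.1, matplotlib 3.10.9) were used.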

Additional observations from a re-analysis of the deposited data

How the results depend on the processing

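Depth is lowest in the WT basal libraries, and only listed peaks were at hand, so a change under the listing limits could not be seen. The median log2 difference of the 20 member peaks listed against WT basal was 1.80. It ran from 1.66 to 1.90 when each library was left out and was 0.348 with TMM factors computed over the listed peaks. Those factors hold the bulk of a list at no change, and since most listed peaks are higher they shift the compared groups by 1.53 (CD11c-low) and 1.49 (CD11c-high against basal), 0.23 (between the gates) and 1.30 (KO against WT CD11c-low) on the log2 scale. With them 7 of the 22 member peaks changed sign: Bcl2l1 at 152814939 (-0.42 in CD11c-low, -0.36 in CD11c-high), Bcl2l1 at 152821151 (-0.021), Bcl2l11 at 128008622 (-0.17), the Bcl2 promoter (-0.28), Bcl2a1b at 89194642 (-0.15) and the Bcl2 peak higher in KO cells (-0.16). Under the other settings 132 of 132 values of single peaks kept their direction. The counts of members with a higher peak stayed within 1.5 times in both comparisons with WT basal. The count of 1 (Bcl2) between the gates and the count of 1 between KO and WT CD11c-low cells each became 0 at a log2 difference of at least 1.5 and 0 within 10 kb of the start.

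At the Bcl2l11 peak shared by both gates the log2 difference between CD11c-high and CD11c-low was 0.52 with edgeR (adjusted p = 0.0165) and 0.50 over peaks with a mean of at least 50 (adjusted p = 0.0314), both past the threshold, and from 0.33 to 0.68 when each library was left out. The number of shared peaks called higher in CD11c-high cells was 23, and 79 with edgeR, 15 with DESeq2, 72 at a mean of at least 50, 388 (and 174 lower) over the 2694 peaks overlapping by 80%, and 0 to 0 with a library left out. The number called lower was 141, and 231 with edgeR, and 0 to 3 with a library left out. With 1 library in an arm the lone library is assumed to vary like the others, and in the settings with no call, which left out a CD11c-low library, 218 and 290 of the 1108 peaks had an unadjusted p under 0.05. With the replicate number as a block the member's log2 difference was 0.50 (adjusted p = 0.101) and 42 peaks were called higher. The deviations of same-numbered libraries correlated at 0.0614 over the 1108 peaks, so the numbers were not taken as pairs. The median percentile of the members' pooled RNA level went from 88.4 to 70.2 in the basal table and from 90.8 to 79.1 in the WT CPZ table without division by transcript length.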
